A study of Mus musculus with 4 samples.

Results

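The numbered zinc finger protein genes of the mouse (symbols made of Zfp and a number) that ID8 cells expressed were examined for their response to USP9X knockdown. This family was chosen with earlier results of these data known. Within it, the genes were taken by their level in the control cells alone, as rows with an estimated count of at least 20 in both control libraries. This rule found 295 genes among 371 numbered Zfp rows and 22063 genes in the table. The rule used the shCtrl counts and not the difference between the groups, but a gene with a high shCtrl count by chance is favoured by it. ID8 is an ovarian cancer cell line of the mouse. RNA was sequenced from ID8 cells with a control shRNA (shCtrl, labelled wild type, 2 libraries) and from ID8 cells with an shRNA against USP9X (shUSP9X, labelled as USP9X knockdown, 2 libraries). USP9X is a deubiquitinase. By the study's methods, shRNAs were carried by a lentiviral vector with a puromycin marker, but which USP9X hairpin, oxygen level or TGF-β1 state these libraries had is not given in the sources used here. Nothing states that the 2 libraries of a group came from separate cultures, so p-values measure only the spread between these libraries.

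Most numbered Zfp genes encode C2H2 zinc finger proteins, in which repeated finger domains, joined by a short conserved linker, bind DNA. A large group carries a KRAB box before its fingers, which recruits the corepressor TRIM28 and through it SETDB1, heterochromatin protein 1 and DNA methyltransferases, and these proteins are known for the silencing of retrotransposons and of imprinted loci. KRAB zinc finger genes lie in clusters that grew by tandem duplication. Other members have no KRAB box and act as transcription activators, RNA-binding proteins, ubiquitin or SUMO ligases or ribosome biogenesis factors.

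The coding sequence of a single finger with its linker is given for 4 members, picked from both ends of the fold change. They are examples and do not stand for the members as a set. The sequences are from GENCODE M21 transcripts on GRCm38, and the capitals mark the codons of the linker to the next finger. For each gene the first finger unit of 78 bases that lies in 1 exon was taken. Zfp820 and Zfp51 were among the largest falls after USP9X knockdown and Zfp771 and Zfp553 among the largest rises.
Zfp820: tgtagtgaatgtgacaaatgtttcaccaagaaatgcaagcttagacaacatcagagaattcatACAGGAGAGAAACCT
Zfp51: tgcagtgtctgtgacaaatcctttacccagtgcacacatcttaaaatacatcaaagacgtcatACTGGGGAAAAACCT
Zfp771: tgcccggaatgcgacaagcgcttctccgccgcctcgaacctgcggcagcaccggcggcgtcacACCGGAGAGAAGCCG
Zfp553: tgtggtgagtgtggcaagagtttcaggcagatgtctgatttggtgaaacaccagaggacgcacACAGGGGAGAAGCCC
The Zfp820 unit lies at chr17:21819716-21819793 on the minus strand and the Zfp51 unit at chr17:21463854-21463931 on the plus strand. The Zfp771 unit lies at chr7:127254024-127254101 and the Zfp553 unit at chr7:127235527-127235604, both on the plus strand. All 4 are coding exon sequence. The units of Zfp820 and Zfp51 held 37.2% and 41.0% G and C, against 70.5% in Zfp771 and 53.8% in Zfp553. At the third codon position the share was 30.8% in both Zfp820 and Zfp51, 88.5% in Zfp771 and 69.2% in Zfp553. Over 1038 finger units of 161 KRAB members the median GC content was 43.6%, and over 197 units of 54 members without a KRAB pattern it was 51.3%.

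Usp9x, the targeted gene (X:13071498-13173328), checks the labels. It had 298.1 and 281.6 normalised CPM (counts per 1000000 counts, scaled by edgeR's TMM method) in the shCtrl libraries and 19.7 and 20.5 CPM in the shUSP9X libraries. The groups did not overlap, and the log2 fold change was -3.85 with a standard error of 0.06 (edgeR's quasi-likelihood test, Benjamini-Hochberg adjusted p = 4.7e-26). With an offset for GC content and transcript length, described below, the log2 fold change of Usp9x was -2.09. The estimated counts of the shCtrl libraries added up to 17232006 and 15611363, and those of the shUSP9X libraries to 19978889 and 17021261. A count of 3, taken as the floor of detection, was worth between 0.150 and 0.192 CPM, and this floor covers counting error only. Of 17 epithelial and mesothelial markers, 16 and 15 were above the floor in the shCtrl libraries and 13 and 14 in the shUSP9X libraries, and Vim was the most abundant in each library. Of the 13 that passed the filter on low counts, 6 fell and 5 rose, against 33.6% and 33.7% of all genes tested. Muc16, at 1.90 and 2.72 CPM in shCtrl, was under the floor in both shUSP9X libraries. Of 16 leukocyte markers none was above the floor in the shCtrl libraries, where they summed to 0.115 and 0.0632 CPM. In the shUSP9X libraries they summed to 9.16 and 10.2 CPM, led by Itgam at 3.64 and 4.45 CPM, while Cd3e and C1qa were at 0. The 4 leukocyte markers tested (Itgam, Adgre1, Ptprc and Csf1r) passed the filter on low counts only through the shUSP9X libraries, where they were high. Their rise is therefore a description, and their part in the results below was not tested. The 12 endothelial, erythroid and stromal markers summed to 187.1 and 184.2 CPM in shCtrl and to 128.6 and 126.2 CPM in shUSP9X, most of it Dcn, while Cdh5, Kdr and Hbb-bs were at 0 in shCtrl. Of the 5 tested, Dcn and Pdgfra fell, by 0.46 and 2.87 on the log2 scale, and none rose, and their part in the results was not tested either. In bulk RNA, fewer cells of a type and less RNA per cell cannot be told apart.

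Without the offset described below, the expressed Zfp genes were mostly lower after USP9X knockdown. Of the 295 genes, all of which passed the filter on low counts, 193 (65.4%) fell and 29 (9.83%) rose at an adjusted p under 0.05 in edgeR's quasi-likelihood test, and 73 did not pass. Over all 11448 genes tested, 33.6% fell and 33.7% rose. The median log2 fold change was -0.64 for the Zfp genes and -0.00 for all genes tested. With the offset 133 Zfp genes (45.1%) fell and 45 rose, against 25.5% and 38.7% of all genes tested, with a median of -0.29. At the study's cutoff, which asks for a fold change above 1.5 with p under 0.05 before adjustment, 150 Zfp genes were lower and 11 higher, against 18.7% and 10.8% of all genes tested. Together the Zfp genes took 0.697% and 0.687% of all counts in the shCtrl libraries and 0.509% and 0.507% in the shUSP9X libraries. Among the 10772 tested genes that met the same minimum of 20 counts in both shCtrl libraries, 3753 fell and 3683 rose. When numbered Zfp genes were chosen by 20 counts in both shUSP9X libraries instead, 149 of 249 fell and 29 rose, with a median of -0.43.

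The share that fell and the median fall were larger for KRAB members than for members with fingers only, but this difference was not tested. The median transcript GC content was 41.3% for KRAB members and 51.1% for members with fingers only. A KRAB pattern was found in 173 members, 115 had C2H2 fingers and no such pattern (C2H2 only in the plots), and 6 had neither. Of the 2 rows named Zfp120, 1 had no annotation. No finger was found in 8 members, more than the 6 with neither, so a finger is not certain for every classed member. The pattern misses divergent boxes, such as that of Zfp57. Of the KRAB members 139 (80.3%) fell and 5 (2.89%) rose, against 33.6% and 33.7% of all genes tested, with a median log2 fold change of -1.28. With members chosen by 20 counts in both shUSP9X libraries, 98 of 130 KRAB genes fell and 5 rose, with a median of -0.79. Of the members with fingers only, 51 (44.3%) fell and 24 (20.9%) rose, with a median of -0.13. With the offset described below, 31 of these fell and 29 rose, with a median of 0.00. Of the KRAB members 98 then fell and 16 rose, with a median of -0.65, against 25.5% and 38.7% of all genes tested. The summed level of the KRAB members was 2232 and 2111 CPM in the shCtrl libraries and 1098 and 1094 CPM in the shUSP9X libraries. The members with fingers only summed to 4516 and 4496 CPM in shCtrl and to 3904 and 3892 CPM in shUSP9X. Per length, the median mean FPKM of a KRAB member was 3.08 in shCtrl and 1.13 in shUSP9X, and that of a member with fingers only was 6.60 and 6.43. Log2 falls of 2 or more were seen in 67 members, of which 61 were KRAB members, and in 370 of all 11448 genes tested.

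KRAB zinc finger genes without a numbered Zfp symbol were set beside the members. Of 59 tested genes with at least 3 fingers and the KRAB pattern but another name, 54 fell and none rose at an adjusted p under 0.05, with a median log2 fold change of -2.07. Some of these genes passed the filter on low counts only through the shCtrl libraries, where they were high, so their count is a description. Among the 29 with at least 20 counts in both shUSP9X libraries, a version chosen after seeing the data, 26 fell and none rose, with a median of -1.26, and with the offset 18 fell and 2 rose, with a median of -0.51. Counts that were not whole, as for reads split between genes, were found in 41 of the 59, and of the 18 others 15 fell and none rose, with a median of -1.92, and with the offset 10 fell and 1 rose, with a median of -0.73. Gm7072, one of the 41, had 28.1 and 21.8 CPM in shCtrl and 1.31 and 1.13 CPM in shUSP9X. Of 138 other genes with at least 3 fingers and no KRAB pattern, 66 fell and 27 rose, with a median of -0.17. With the offset 33 of these 138 fell and 49 rose, against 25.5% and 38.7% of all genes tested. Among related families, 15 of 38 Zbtb genes (39.5%) fell and 10 (26.3%) rose, against 33.6% and 33.7% of all genes tested. With the offset 5 Zbtb genes fell and 13 rose, against 25.5% and 38.7% of all genes tested. Of 11 Klf genes 8 fell and 2 rose, and with the offset 7 fell and 2 rose.

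The transcript's GC content moved with the fold change. Across 294 members the Spearman correlation between log2 fold change and transcript GC content was 0.84, and across 11136 other genes it was 0.43. These are descriptions across genes, which share libraries and sequence and are not independent. For the members the correlation was 0.83 with the GC content of the coding sequence, 0.74 with that of the 3′ UTR, 0.39 with that of the RefSeq promoter window (300 bases, 245 members matched by symbol) and 0.00 with transcript length. With the offset described below, the correlation with transcript GC content was 0.52 for the members and -0.06 for the other genes. That with transcript length was then 0.28 for the members and 0.08 for the other genes. Without the offset it was -0.33 for the other genes. The tested genes were also put into 10 classes of equal size by GC content. All 109 members in class 1, with a GC content up to 41.7%, were lower at an adjusted p under 0.05, with a median of -2.19. Of the 1034 other genes in that class, 831 fell and 65 rose, with a median of -0.79. The members had to meet the minimum count in both shCtrl libraries, which can favour falls. The other genes had only to pass the filter on low counts, which a gene can do through the shUSP9X libraries alone. The medians of members and other genes in a class therefore come from unlike selections. The part of this in their difference was not tested. In class 10, with the highest GC content, 4 of 27 members fell and 12 rose, with a median of 0.23 against 0.18 for the other genes.

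**Figure D1:**
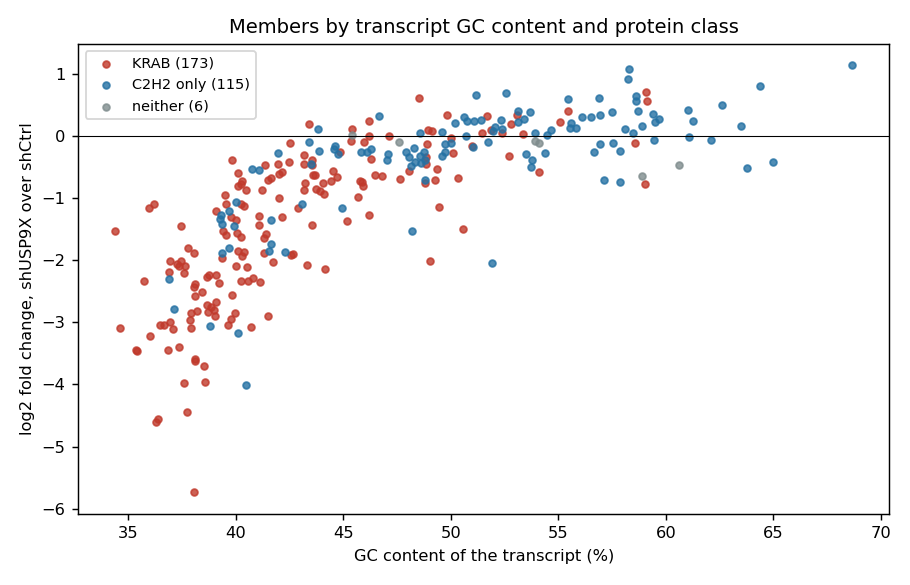
Log2 fold change of each member (y axis, shUSP9X over shCtrl) against the GC content of its transcript in percent (x axis), with 1 point per gene coloured by protein class. The members with the deepest falls lie at low GC content, and the Spearman correlation over 294 members was 0.84.

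**Figure D2:**
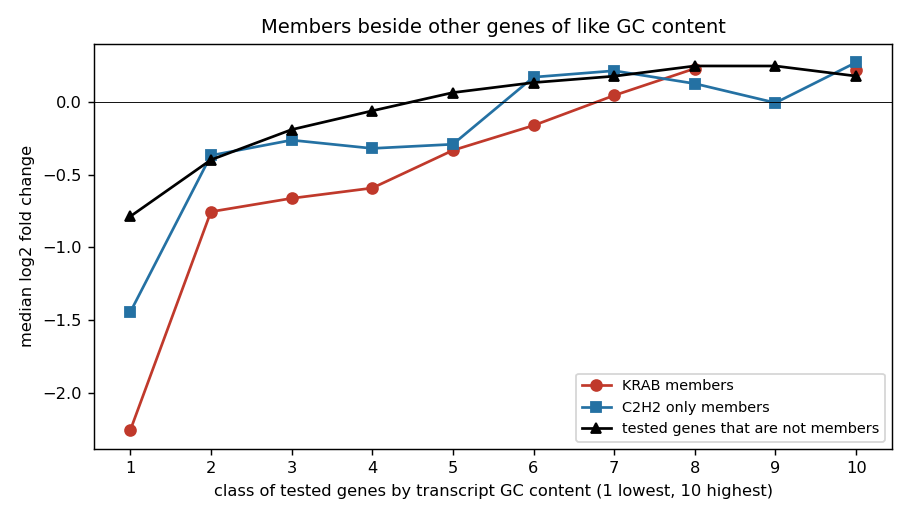
Median log2 fold change (y axis) in each of 10 classes of the tested genes by transcript GC content (x axis, class 1 lowest), for KRAB members, members with fingers only and all other tested genes. In class 1 the medians were -2.26, -1.45 and -0.79, and KRAB members had no gene in class 9. The members, but not the other genes, had to meet the minimum count in both shCtrl libraries.

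With an offset for each library's trend on GC content and transcript length, fitted over all genes, the fall was smaller. Then 133 members fell and 45 rose, against 25.5% and 38.7% of all genes tested, and the median was -0.29 against 0.07 for all genes tested. Of the KRAB members 98 fell and 16 rose, with a median of -0.65, and of the members with fingers only 31 fell and 29 rose, with a median of 0.00. In GC class 1 the offset median was -1.04 for the 109 members and 0.25 for the 1034 other genes. These other genes did not have to meet the members' minimum count in both shCtrl libraries, so the medians come from unlike selections. The KRAB genes with other names had a median of -1.17 with the offset, and 39 fell and 2 rose. The part of base composition, as a property of the libraries or of the RNA, in the fall of the Zfp genes was not tested.

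**Figure D3:**
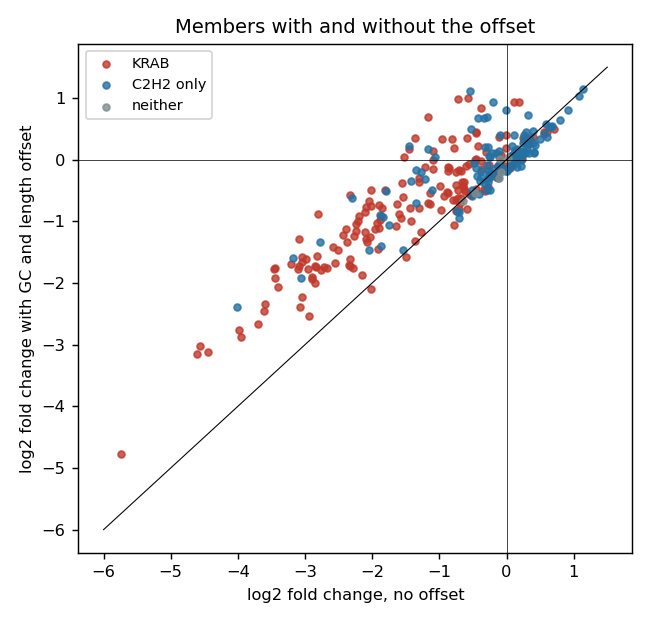
Log2 fold change of each member without (x axis) and with (y axis) the GC and length offset, coloured by protein class, with the line of equal values. Of the 193 members that fell, 172 lie above the line, and the member median went from -0.64 to -0.29.

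The 12 largest falls among members whose mean log2 CPM reached 2 and whose groups did not overlap were 10 KRAB genes together with Zfp292 and Zfp638. Groups without overlap were a condition of this choice, and 257 of the 295 members and 9419 of the 11448 genes tested had them. Zfp808 had 8.02 and 8.29 CPM in shCtrl and 0.303 and 0.356 CPM in shUSP9X, a log2 fold change of -4.61 (adjusted p = 1.6e-12, edgeR). Zfp820 had 9.57 and 8.73 CPM against 0.455 and 0.297 CPM, and fell by 4.56 on the log2 scale. Zfp51 had 18.4 and 14.4 CPM against 1.47 and 1.01 CPM, and fell by 3.71. In each of these KRAB genes both shUSP9X libraries lay far below both shCtrl libraries. The others were Zfp97, Zfp758, Zfp992, Zfp991, Zfp942, Zfp943 and Zfp979, with log2 fold changes from -3.98 to -3.09. With the offset the log2 fold changes were -3.15 for Zfp808, -3.02 for Zfp820 and -2.66 for Zfp51, and those of the other 7 KRAB genes ran from -2.75 to -1.29. Zfp97 and Zfp991 share 68.0% and 73.8% of their transcript's 100-base words with other genes, so that counts could be split between copies, and their values are uncertain. Zfp808, Zfp992 and Zfp979 share 14.6%, 28.6% and 17.0%, and their counts were also not whole, so the same limit applies to them. Zfp976, a member whose mean log2 CPM was under 2, fell from 39 and 22 shCtrl counts to 1 and 0 in the knockdown, under the floor.

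Zfp292 and Zfp638 were abundant members without a KRAB pattern. Zfp292, which encodes a large multi-finger transcription factor, had 67.6 and 62.9 CPM in shCtrl and 3.90 and 4.21 CPM in shUSP9X, a log2 fold change of -4.01 with a standard error of 0.11 (adjusted p = 3.4e-21, edgeR). Zfp638, a nucleic acid binding protein known to silence unintegrated retroviral DNA, had 73.1 and 72.5 CPM against 7.64 and 8.49 CPM, and fell by 3.18 on the log2 scale. With the offset their log2 fold changes were -2.39 and -1.60.

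The 8 largest rises by the same rule were smaller than the falls, and 7 of them were members without a KRAB pattern. Zfp771 had 8.36 and 9.61 CPM in shCtrl and 19.98 and 19.4 CPM in shUSP9X, a log2 fold change of 1.13 (adjusted p = 1.2e-08, edgeR). Zfp574 had 17.5 and 16.1 CPM against 37.5 and 33.4 CPM, a log2 fold change of 1.07. Zfp553 had 20.8 and 19.5 CPM against 38.0 and 38.3 CPM, a log2 fold change of 0.92. The shUSP9X libraries of these genes were above both shCtrl libraries, and with the offset the log2 fold changes were 1.14, 1.02 and 0.81. Zfp622, which takes part in the maturation of the large ribosomal subunit, rose by 0.66 on the log2 scale, from 74.3 and 68.1 CPM to 112.4 and 113.1 CPM. Zfp428, Zfp13, Zfp672 and Zfp341 completed the list, with log2 fold changes from 0.63 to 0.80. Of these, Zfp13 (adjusted p = 0.078 with the offset, edgeR) was the KRAB gene. Zfp13 no longer passed without shCtrl replicate 2 (log2 fold change 0.48) or shUSP9X replicate 1 (0.62), and Zfp341 without shCtrl replicate 1 (0.57) or shUSP9X replicate 1 (0.45). By DESeq2 neither passed (adjusted p = 0.07 for Zfp13 and 0.072 for Zfp341), and Zfp341 did not pass on FPKM + 0.1 (0.55) or FPKM + 1 (0.35), nor Zfp13 with the block and the offset together (0.50).

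**Figure D4:**
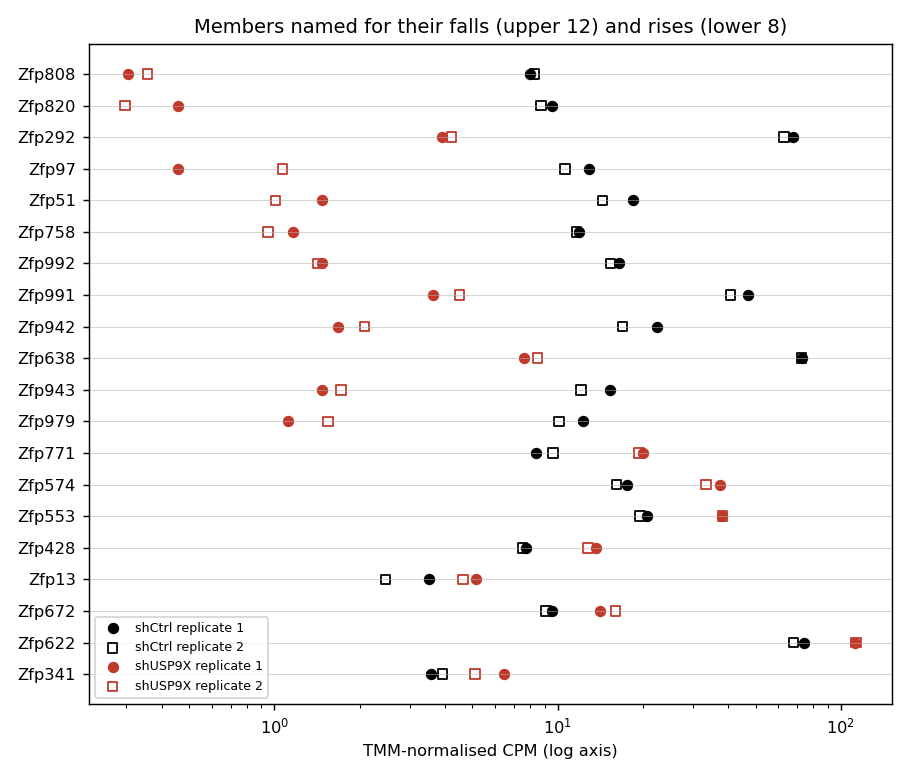
Normalised CPM (x axis, log scale) in each of the 4 libraries for the 12 members named for their falls and the 8 named for their rises, with black symbols for shCtrl and red for shUSP9X. Groups without overlap were a condition for being shown. Both shUSP9X values of Zfp808 and Zfp820 lie between 0.297 and 0.455 CPM.

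Of the members with documented roles, 4 that act in silencing are given first, chosen after their values were seen. Zfp445, which with Zfp57 maintains methylation at imprinting control regions, had 82.1 and 82.4 CPM in shCtrl and 20.8 and 17.8 CPM in shUSP9X, and fell by 2.08 on the log2 scale (adjusted p = 2.4e-18, edgeR). Zfp57 had 50 and 57.1 CPM against 44.5 and 44.6 CPM, a log2 fold change of -0.26 (adjusted p = 0.0027). Zfp809, which recognises the primer binding site of murine leukaemia viruses, had 17.0 and 18.3 CPM against 6.98 and 6.65 CPM, and fell by 1.37. The groups did not overlap in any of these genes, but Zfp57 no longer passed without shCtrl replicate 2, at -0.16. With the offset the log2 fold changes were -1.34 for Zfp445, -0.18 for Zfp57 and -1.32 for Zfp809. Zfp568, which represses a placental Igf2 transcript, had a log2 fold change of -0.00 (adjusted p = 0.96), with 58.7 and 54.6 CPM against 54.2 and 59.0 CPM, and 0.40 with the offset, where it passed (adjusted p = 7e-06, edgeR). Of 29 imprinted genes in the table, 9 were tested, of which 5 fell and 2 rose (33.6% and 33.7% over all genes tested), with a median of -0.28. With the offset 3 fell and 4 rose (25.5% and 38.7% over all genes tested), with a median of 0.04.

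Members with other documented roles follow. On the list of documented roles 46 genes were tested, of which 27 (58.7%) fell and 11 (23.9%) rose, against 33.6% and 33.7% of all genes tested, with a median log2 fold change of -0.30. With the offset 17 fell and 18 rose, against 25.5% and 38.7% of all genes. Zfp281, a transcription factor of pluripotent cells, fell by 1.10 on the log2 scale, from 60.4 and 60.0 CPM to 28.5 and 27.4 CPM, and Zfp131 fell by 1.21. With the offset their values were -0.50 and -0.32. Zfp148 fell by 1.45 and Zfp451, a SUMO ligase, fell by 0.55, but with the offset their values were 0.23 and 1.11. Their transcripts are long, at 9830 and 11876 bases against a member median of 3477, and the offset also fits length. Their mean FPKM was 19.2 and 13.2 in shCtrl and 7.655 and 8.12 in shUSP9X. The part of transcript length in these changes of sign was not tested. Zfp593, a ribosome biogenesis factor, rose by 0.61, and Zfp64 by 0.56, and with the offset their values were 0.36 and 0.41. Zfp598, the ubiquitin ligase that senses collided ribosomes, did not pass, with a log2 fold change of -0.07 (adjusted p = 0.35, edgeR), nor did Zfp36, which binds AU-rich elements of mRNA, at -0.11 (adjusted p = 0.42). With the offset both passed, at -0.16 (adjusted p = 0.021, edgeR) and -0.29 (adjusted p = 0.033).

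Per length, the 5 most abundant members in shCtrl had fingers and no KRAB pattern. Zfp706 had a mean FPKM of 107.2 ± 26.1 (SD, n = 2) in shCtrl and 116.0 ± 11.6 (SD, n = 2) in shUSP9X. Zfp207, a spindle assembly protein, had 104.8 ± 2.77 FPKM (SD, n = 2) and 112.0 ± 2.14 FPKM (SD, n = 2). The means of Zfp706 were within its spread, and by counts its log2 fold change was -0.10. Zfp106 had 65.1 and 56.5 FPKM, the ubiquitin ligase Zfp91 44.4 and 32.2 FPKM, and Zfp740 35.6 and 32.9 FPKM, as means of shCtrl and shUSP9X. By counts, the log2 fold changes of Zfp207, Zfp106, Zfp91 and Zfp740 were 0.12, -0.30, -0.43 and -0.19 (edgeR), and with the offset they were 0.40, 0.68, -0.27 and -0.24. Zfp706 had 0.40 with the offset. Zfp706 did not pass without shCtrl replicate 1 (-0.06) or shUSP9X replicate 2 (-0.04), Zfp207 without either shUSP9X replicate (0.10 and 0.13), and Zfp740 without shUSP9X replicate 1 (-0.15).

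The corepressor list holds Trim28, Setdb1 and other genes of chromatin and its silencing, which are not all particular to KRAB proteins. Of its 33 tested genes, 13 (39.4%) fell and 13 (39.4%) rose, against 33.6% and 33.7% of all genes tested, with a median log2 fold change of 0.01. With the offset 8 fell and 22 rose, against 25.5% and 38.7% of all genes. Trim28, the corepressor that binds the KRAB box, had 328.2 and 341.8 CPM in shCtrl and 457.0 and 461.6 CPM in shUSP9X, a log2 fold change of 0.46 (adjusted p = 2.4e-11, edgeR). Setdb1, the H3K9 methyltransferase, had a log2 fold change of -0.04 (adjusted p = 0.51), and Uhrf1 and Dnmt1, of maintenance DNA methylation, rose by 0.56 and 0.31. The HUSH complex subunits Tasor and Mphosph8 fell by 2.66 and 2.28 on the log2 scale, while Pphln1 had 0.01 (adjusted p = 0.88). With the offset these were -1.19, -1.83 and 0.35, and Pphln1 then passed (adjusted p = 3e-07, edgeR). Atrx, a chromatin remodeller that deposits histone H3.3 with Daxx, had 178.5 and 167.3 CPM in shCtrl and 11.2 CPM in both shUSP9X libraries, and fell by 3.95. The Atrx transcript has 39.5% GC, and its log2 fold change with the offset was -2.22. Cbx5, a heterochromatin protein 1 gene, fell by 0.66, but with the offset its value was 0.61.

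The members are unevenly placed in the genome. With members within 1000000 bases of each other joined, the 294 members with coordinates formed 126 neighbourhoods on GRCm38, of which 15 had 6 or more members and together held 142. Chromosome 7 held 74 members and chromosome 17 held 39. In the neighbourhood at chr17:21008903-23599487, from Zfp160 to Zfp13, 20 of 22 members fell, against 33.6% of all genes tested, with a median log2 fold change of -2.92. The exceptions at its end were Zfp213 at 0.22, which did not pass, and Zfp13 at 0.70. All 7 members at chr4:146449023-147848366 fell, with a median of -3.09, and 15 of 16 at chr13:67038596-67827002, with a median of -2.13. With the offset the medians were -1.66 on chromosome 17, -1.69 on chromosome 4 and -0.84 on chromosome 13, where 18 of 22, 7 of 7 and 8 of 16 members fell, against 25.5% of all genes tested. These 3 neighbourhoods held 44 KRAB members, and their median GC contents were 38.4%, 36.5% and 39.0%.

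At chr7:41633203-43593235, 6 of 7 members fell, with a median of -1.93, and at chr2:175469985-178078476 all 6 fell, with a median of -1.41. With the offset 4 and 3 of them fell, and the medians were -1.04 and -0.66. At chr7:127233061-127885996, which holds Zfp553 and Zfp771, 2 of 10 members fell and 3 rose, against 33.6% and 33.7% of all genes tested, with a median of 0.12. At chr6:47835661-48445825 the median was 0.11, with 1 of 7 lower and 3 higher. Their median GC contents were 53.8% and 55.4%, and their medians with the offset 0.04 and 0.18. In others the median changed sign with the offset. At chr9:19622102-20605409 all 6 members, each with the KRAB pattern, fell, with a median of -0.53, but with the offset none fell, 3 rose and the median was 0.52. At chr17:32765496-33631779 8 of 10 members fell and 1 rose, with a median of -0.92, and with the offset 1 fell and 3 rose, with a median of 0.15.

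**Figure D5:**
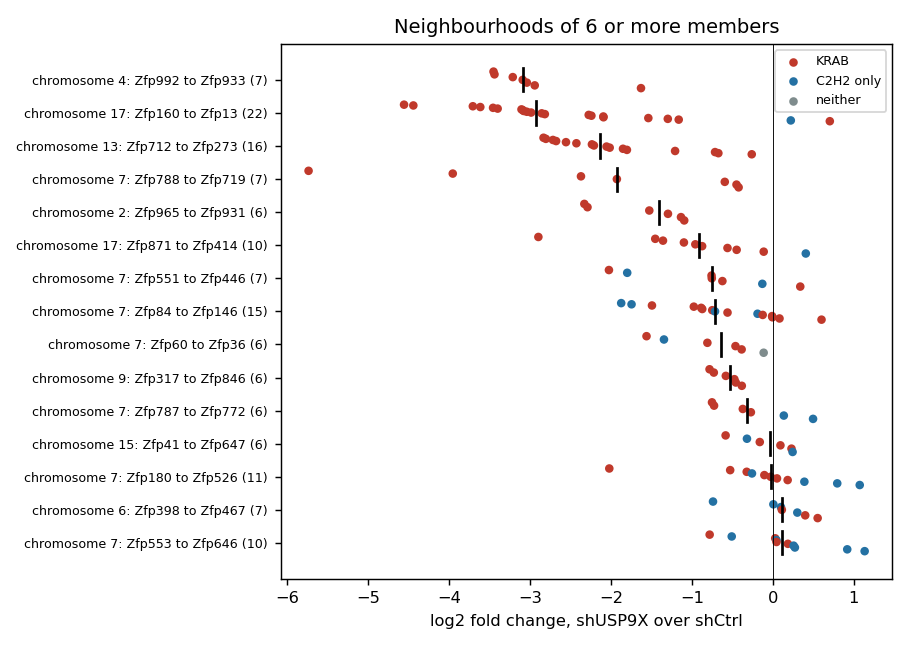
Log2 fold change (x axis, shUSP9X over shCtrl) of each member in the 15 neighbourhoods with 6 or more members (y axis, named by chromosome and by first and last member), with points coloured by protein class and a bar at the median. Medians ran from -3.09 for Zfp992 to Zfp933 on chromosome 4 to 0.12 for Zfp553 to Zfp646 on chromosome 7.

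At the threshold of the rule the values were low. Just inside it, the shCtrl counts of Zfp334 were 20 and 26 and its shUSP9X counts 14 and 9, Zfp78 had 21 and 26 against 21 and 10, and Zfp109 had 31 and 21 against 11 and 3. Just outside it, Zfp185 had 19 and 21 against 16 and 14, Zfp473 had 19 and 22 against 22 and 10, and Zfp708 had 32 and 18 against 5 and 5. Of the 76 numbered Zfp rows that were not members, 24 had no count in any library. Shared sequence bore on 83 members, which had at least 1 100-base word in common with another gene's transcript. Without them, 83 of 107 KRAB members fell and 4 rose, against 33.6% and 33.7% of all genes tested, with a median of -0.88. With the offset 56 of the 107 fell and 13 rose, against 25.5% and 38.7% of all genes tested, with a median of -0.53.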

How the data were processed

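The authors deposited an estimated count, not normalized, and an FPKM value (scaled for length and library size) per gene for 4 libraries of ID8 cells. Per the study's methods, reads were mapped to GRCm38. The submitters' processing notes name fastp 0.18.0, Bowtie2 2.2.8, HISAT2, StringTie 1.3.1 and RSEM without their roles. The planned test assumed whole counts, so the deposited counts were rounded (62 members had values that were not whole). All genes passing filterByExpr were tested with edgeR 4.0.16 (R 4.3.3), as the quasi-likelihood test with TMM and Benjamini-Hochberg adjustment. Limma 3.58.1 was used for FPKM and DESeq2 1.42.0 as an alternative.

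The members and gene lists were chosen with earlier results of these data known. The genes named are Usp9x, the 12 largest falls and 8 largest rises (adjusted p under 0.05, mean log2 CPM of at least 2, no overlap), the 5 members highest in FPKM, the documented-role and corepressor lists and 3 genes on each side of the threshold, with others named after their values were seen. Genes of these lists that the text does not name enter only its counts, and values of their own are not reported here. Protein classes came from patterns in translated GENCODE M21 coding sequences, a source chosen after the files were seen, because no protein table was used here. On simulated data with 200 genes changed 2-fold, edgeR recovered 90% and called 12 unchanged genes of the 11448 tested. With a GC trend added to the simulated counts of these 11448 genes, the test without an offset, which is the main one here, called 7115 unchanged genes and the test with it 0. The added trend was linear, and its size was set beforehand and not taken from these libraries. Because the offset fits GC content, this outcome follows from the setting. It cannot tell how many calls in these libraries come from a GC trend. Alternatives were DESeq2, other scalings and filters, FPKM with a pseudocount of 1 or 0.1, a replicate block, an offset for transcript GC content and length (a loess fit per library, span 0.3), each library left out, and other count minimums for members.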

Additional observations from a re-analysis of the deposited data

How the results depend on the processing

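The fall of the Zfp genes kept its direction under every alternative run, with a member median between -0.67 and -0.29. The median was -0.54 and -0.43 with log2(FPKM + 0.1) and log2(FPKM + 1) (limma, 258 members with a mean FPKM of at least 1), -0.57 with at least 10 counts in every library, -0.67 with library size only, -0.63 with no filter and -0.61 with upper quartile scaling. By the rule on members it was -0.43 with 20 counts in both shUSP9X libraries, -0.59 with a mean of 20 counts, -0.57 with 50 and -0.46 with 100 counts in both shCtrl libraries, where 94 members were lower at the study's cutoff. With FPKM + 0.1 and FPKM + 1, 7 and 4 members were higher at that cutoff. With the GC and length offset 45 members rose (17 at the cutoff) and the median was -0.29, and with the replicate block and the offset together 44 rose (17 at the cutoff) and the median was -0.29. Leaving out each library in turn gave 169 to 179 members lower and 23 to 29 higher, 141 to 146 lower and 9 to 12 higher at the cutoff, a median from -0.61 to -0.57 and -3.89 to -3.80 for Usp9x. With the offset Usp9x was at -2.09, with or without the block. The lone library of a group was then assumed to vary like the other group. DESeq2 called 165 lower and 21 higher. The cause of these differences was not tested.

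The replicate block left 192 members lower and 29 higher and changed no call of a named gene. The deviations of libraries with the same number had a correlation of -0.0453. With so few libraries this cannot tell whether libraries with the same number share a batch or a culture.

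Over 99 named genes, 1319 of 1467 values under an alternative kept their direction and side of the threshold, 68 no longer passed, 25 newly passed and 55 changed sign. With the offset the log2 fold changes that changed sign were Zfp706 0.40, Zfp106 0.68, Zfp318 0.17, Zfp148 0.23, Zfp704 0.68, Zfp451 1.11, Zfp462 0.67, Zfp568 0.40, Zfp652 0.93, Zfp473 0.50, Cbx5 0.61, Setdb1 0.00, Hdac2 0.24, Hdac1 -0.13, Cbx3 0.17, Pias1 0.50, Gatad2b 0.48 and H3f3a 0.29. With the block and the offset the same genes changed sign with the same values, except Zfp473 0.48 and Pias1 0.49. With FPKM + 0.1 they were Zfp706 0.13, Zfp704 0.16, Zfp568 0.03, Pias1 0.05 and Gatad2b 0.18, and with FPKM + 1 Zfp706 0.13, Zfp704 0.13, Zfp568 0.03, Pias1 0.05 and Gatad2b 0.17. Values near 0 also changed sign for Zfp568 (0.01 with no filter and 0.03 with upper quartile) and Pphln1 (-0.02 with library size only, -0.00 without shCtrl replicate 1 and -0.00 without shUSP9X replicate 2). Leaving out each library in turn gave -0.15 to 0.02 for Zfp598, -0.06 to 0.06 for Zfp568 and -0.10 to 0.01 for Setdb1. At these depths, fold changes of members with few counts are the least certain.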
